A study of Mus musculus with 899 samples.

Results

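The miR-148 and miR-152 family was followed in the blood plasma of mice, taken as the rows of the count table named mmu-miR-148a-3p, mmu-miR-148b-3p, mmu-miR-152-3p and mmu-miR-152-5p. These were 4 of 1915 mature miRNA, and all 4 were among the 483 miRNA kept by the filter on low counts. The 196 mice were bled repeatedly for miRNA sequencing, which gave 402 samples from C3H and 497 from C57Bl/6 mice, and samples of 1 mouse are not independent. The question of the series was which plasma miRNA accompany late lung injury after thoracic irradiation in strains that differ in that injury.

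C3H mice (strain label C3Hf/Sed/Kam; 64 irradiated, 32 sham) and C57Bl/6 mice (68 irradiated, 32 sham) of both sexes received either 1 dose of X-rays to the whole thorax (whole thorax lung irradiation, WTLI) or sham treatment. Plasma was drawn before irradiation (PT), at day 2 (D2) or day 5 (D5), and monthly from M1, to M4 in C3H and to M6 in C57Bl/6 mice. Of the irradiated C57Bl/6 mice, 4 have samples only from M1 on, since 64 have a PT sample and 68 an M1 sample. Comparisons with a mouse's own PT level leave these 4 out. Strain, treatment and time point gave 32 groups. Later irradiated groups hold only the mice still sampled, from 17 C3H mice at M4 and 8 C57Bl/6 mice at M6, against 16 sham mice at each. The sample titles also carry a code, G2 or G4 in C3H and G1 or G3 in C57Bl/6 mice. The labels do not say what this code stands for, and G3 and G4 mice were followed only to M1.

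Depth was 206490 to 11814515 reads (median 1475030). mmu-miR-16-5p, abundant in blood cells, alone took 46.2% of the reads at the median (16.2% to 71.8%), so that every level here is a share of a pool shaped by a few miRNA. Plasma is a bulk fluid, and a difference in a plasma miRNA cannot separate the number of cells that release it from the amount each cell releases.

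A miRNA guides the silencing complex to messages that pair with its seed, the stretch near its 5′ end, so miRNA with the same seed share many targets. The members with the 3p arm form 1 such seed family. They are known for silencing the maintenance DNA methyltransferase Dnmt1, and miR-148a is also known as an abundant liver miRNA that lowers the LDL receptor. In this family the opposite 5p arm was the scarcer strand in plasma, and it has another seed.

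The mature sequences are shown because the members differ so little that reads of one can resemble another. They were taken from RefSeq (GRCm38.p6), 5′ to 3′, with the seed, bases 2 to 8, in capitals.
mmu-miR-148a-3p: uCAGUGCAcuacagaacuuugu
mmu-miR-148b-3p: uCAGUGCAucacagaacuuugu
mmu-miR-152-3p: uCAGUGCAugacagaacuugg
mmu-miR-152-5p: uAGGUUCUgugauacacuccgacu

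The seed CAGUGCA was held by 3 of the 1679 mature miRNA with a sequence, which were the 3 members with the 3p arm. Counted from 1 at the 5′ end, mmu-miR-148a-3p and mmu-miR-148b-3p differ by C9U and U10C. The differences of mmu-miR-152-3p from mmu-miR-148b-3p are C10G and U20G over the shared 21 bases. How the authors' software assigned reads that could come from either is not given in the sources used here, so small differences between these members remain uncertain. The seed AGGUUCU of mmu-miR-152-5p was found in no other mature miRNA of the table.

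The hairpins lie on 3 chromosomes (GRCm38.p6). Mir148a is at chr6:51269812-51269910 on the minus strand and overlaps no other annotated gene. Mir148b is at chr15:103285125-103285221 on the plus strand, within an intron of Copz1. Mir152 is at chr11:96850393-96850465 on the plus strand, within an intron of Copz2, and carries both mmu-miR-152-3p and mmu-miR-152-5p. Copz1 and Copz2 encode zeta subunits of the coatomer coat of transport vesicles.

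Levels are given as log2 CPM, reads scaled to a common library size by trimmed means, over the 483 miRNA kept by the filter. The members are 21 to 24 bases long. mmu-miR-148a-3p was the third most abundant plasma miRNA by mean CPM, with 3.40% of all reads and a level of 14.56 ± 1.02 (SD, all samples), from 12.24 through a median of 14.41 to 18.89. mmu-miR-148b-3p stood at 11.75 ± 0.37 (SD, all samples), from 10.76 through 11.73 to 13.11. mmu-miR-152-3p stood at 10.99 ± 0.55 (SD, all samples), from 8.61 through 10.97 to 12.92. Most of the family's reads were therefore of 1 member, and mmu-miR-148a-3p made up a median of 79.8% of the family's reads (46.0% to 99.0%).

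The 5p arm of Mir152 was scarce. mmu-miR-152-5p had a median of 7 reads per sample and 0 reads in 111 samples (12.3%), and the whole table held 365 reads of mmu-miR-152-3p for each of its reads. The 3p arm also prevailed for the other hairpins, by 1013 to 1 over mmu-miR-148a-5p and by 576 to 1 over mmu-miR-148b-5p. With so few reads, only large differences of mmu-miR-152-5p were detectable at this depth.

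**Figure D1:**
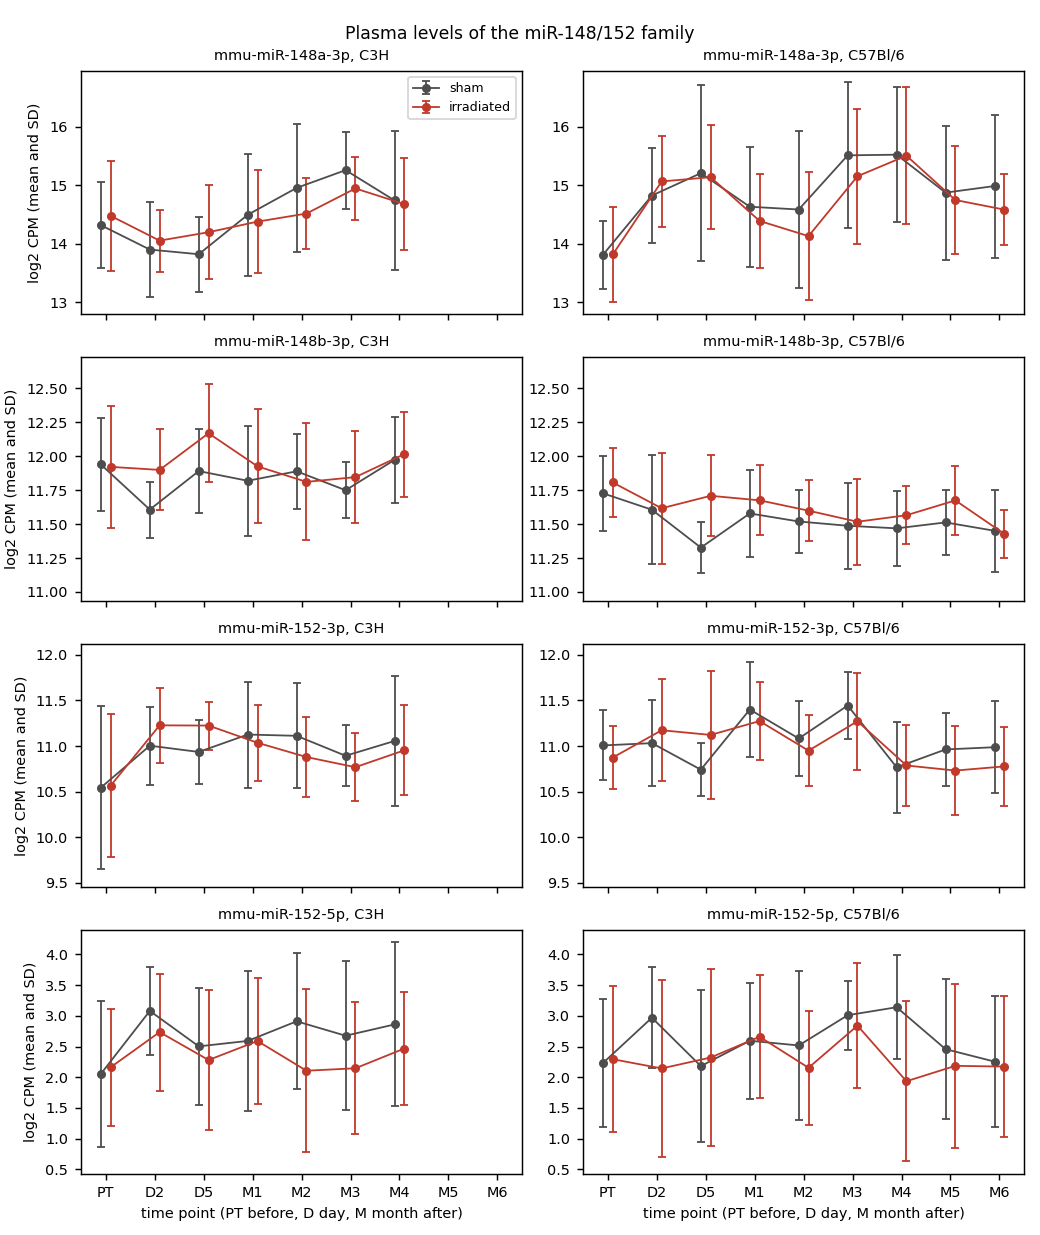
Mean level of each member (log2 CPM; points) with the SD over samples (bars) by time point, for sham and irradiated mice of each strain. Group means of mmu-miR-148a-3p run from 13.81 to 15.52, whereas those of mmu-miR-148b-3p stay between 11.33 and 12.17.

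The members varied unequally among mice. Within groups, the SD of mmu-miR-148a-3p was 0.91, the 7th largest among 123 miRNA with a mean of at least 100 CPM, whereas that of mmu-miR-148b-3p was 0.32, the 120th. mmu-miR-152-3p lay between them with an SD of 0.50. Ordered by group mean, mmu-miR-148a-3p was lowest in sham C57Bl/6 mice at PT (13.81) and highest in sham C57Bl/6 mice at M4 (15.52). mmu-miR-148b-3p was lowest in sham C57Bl/6 mice at D5 (11.33) and highest in irradiated C3H mice at D5 (12.17), and mmu-miR-152-3p ran from 10.54 in sham C3H mice at PT to 11.44 in sham C57Bl/6 mice at M3. mmu-miR-152-5p ran from 1.94 to 3.14. For all 4 members, each of the 31 gaps between neighbours in that order was smaller than the SD of either neighbour. With 32 groups in order small gaps are usual, so this does not tell whether groups differ.

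Irradiated and sham mice were compared first at each time point after irradiation. The C57Bl/6 mice at D5 held the only called differences, in mmu-miR-148b-3p and mmu-miR-152-3p, both higher after irradiation. A difference is called when its adjusted p is under 0.05 by the quasi-likelihood test of edgeR, adjusted after Benjamini and Hochberg over the 483 miRNA. In C3H mice 0 of 24 tests of the members were called, where 70 of all 2898 were (2.42%), and 3 of the 24 had an unadjusted p under 0.05. Of the tests in C57Bl/6 mice 2 of 32 were called, where 184 of all 3864 were (4.76%), and 5 had an unadjusted p under 0.05.

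In sham C57Bl/6 mice at D5, mmu-miR-148b-3p lay at 11.00, 11.30 and 11.67 log2 CPM (lowest, median and highest, n = 16). In irradiated mice it lay at 10.96, 11.74 and 12.28 (n = 32). The groups overlapped, but 18 of 32 irradiated mice stood above the highest sham mouse and 29 above the sham median. The fitted log2 fold change was 0.40 (SE 0.10, adjusted p = 0.00202), 2 of the 4 members were called, and 14.1% of all miRNA were called in this comparison. Sham mice had themselves fallen below their own PT level, with 1 of 16 above it, against 10 of 32 irradiated mice. With limma-voom in place of edgeR the difference was 0.38 (adjusted p = 0.00800), and with limma-voom and the mouse as a fixed replicate block, that is, on changes from the mouse's own PT sample, it was 0.25 (adjusted p = 0.286) and was not called.

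For mmu-miR-152-3p, sham C57Bl/6 mice at D5 lay at 10.04, 10.78 and 11.11 log2 CPM (n = 16). Irradiated mice lay at 9.46, 11.07 and 12.79 (n = 32). The irradiated group was the wider on both sides, with 15 of 32 mice above the highest sham mouse and 21 above the sham median. The fitted log2 fold change was 0.53 (SE 0.16, adjusted p = 0.0125), against a difference of group means in log2 CPM of 0.38. The call was already lost under limma-voom without a block, at 0.42 (adjusted p = 0.0956), and limma-voom gave 0.42 (adjusted p = 0.0947) with the mouse as a random replicate block and 0.47 (adjusted p = 0.119) with the fixed replicate block.

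Split by title code and sex, the irradiated minus sham difference of mmu-miR-148b-3p at D5 had the same sign in all 4 kinds of C57Bl/6 mice. It was 0.30 in G1 females, 0.56 in G1 males, 0.40 in G3 females and 0.30 in G3 males, each from 8 irradiated and 4 sham mice. The mean of the 4 was 0.39 (adjusted p = 0.000422). mmu-miR-152-3p did not share this evenness, with -0.25 in G1 females, 0.35 in G1 males, 1.01 in G3 females and 0.59 in G3 males. Their mean was 0.42 (adjusted p = 0.00619), and without the G3 females it was 0.23 (adjusted p = 0.332).

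The difference of mmu-miR-148a-3p at D5 in C57Bl/6 mice was not called, and its size and call varied with the fit. Sham mice lay at 13.40, 14.77 and 18.89 log2 CPM (n = 16) and irradiated mice at 13.52, 15.23 and 17.71 (n = 32). The fitted log2 fold change was -0.73 (SE 0.29, adjusted p = 0.0749), while the group means of 15.20 and 15.13 differed by -0.07, and 24 of 32 irradiated mice stood above the sham median. By title code and sex the differences were -0.28, 0.78, -1.84 and 1.14 in G1 females, G1 males, G3 females and G3 males. The sign thus changed from cell to cell, and the 4 sham G3 females, with levels from 14.79 to 18.89, included the highest mouse. Over 18 alternatives the difference ran from -1.60 to 0.55, and it was called in 5 of them, each time as lower after irradiation. Those were DESeq2 (-1.07), its size factors in edgeR (-1.07), no filter on low counts (-0.88), only miRNA with a mean of at least 100 CPM (-1.04) and G3 mice alone (-1.60), whereas it was at 0.23 in G1 mice alone (adjusted p = 0.844).

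**Figure D2:**
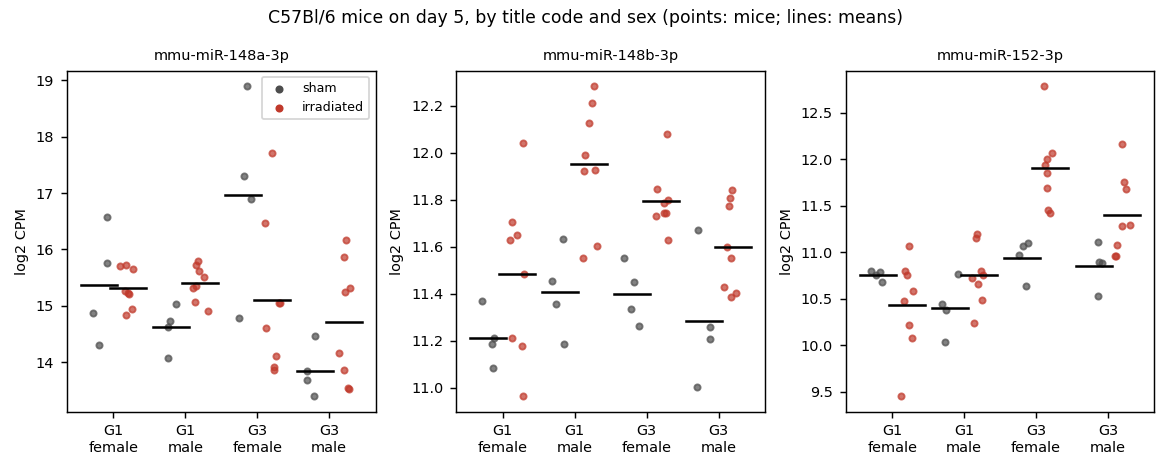
Levels (log2 CPM) in C57Bl/6 mice at D5, one point per mouse, sham and irradiated, by title code and sex, with lines at the means. In mmu-miR-148b-3p the irradiated mean is above the sham mean in all 4 kinds of mice, and in mmu-miR-148a-3p the highest point, at 18.89, is a sham G3 female.

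In C3H mice mmu-miR-148b-3p at D2 lay next to the threshold, with the same sign in all of 18 alternatives (0.26 to 0.44) and a call in 10 of them. Sham mice lay at 11.31, 11.53 and 11.95 log2 CPM (n = 16) and irradiated mice at 11.26, 11.92 and 12.62 (n = 32). Of the irradiated mice, 15 of 32 stood above the highest sham mouse and 28 above the sham median. The log2 fold change was 0.31 (SE 0.10, adjusted p = 0.0548), and at D5 it was 0.29 (SE 0.10, adjusted p = 0.108). Sham C3H mice at D2 had fallen below their own PT level, with 1 of 16 above it.

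Elsewhere no member was called. In C3H mice the share of all miRNA called was 4.97% at D2, 3.11% at D5, 3.31% at M1, 0.621% at M2, 2.07% at M3 and 0.414% at M4. In C57Bl/6 mice it was 6.63% at D2, 3.73% at M1, 3.31% at M2, 1.66% at M3, 4.76% at M4, 3.52% at M5 and 0.414% at M6. Before irradiation, when mice assigned to WTLI and sham had not yet differed in treatment, the share was 0% in either strain, and 0% of the members' tests were called. The log2 fold changes after irradiation spanned -0.75 to 0.49 for mmu-miR-148a-3p, -0.04 to 0.40 for mmu-miR-148b-3p, -0.28 to 0.53 for mmu-miR-152-3p and -1.03 to 0.39 for mmu-miR-152-5p, over both strains. From M1 on, mmu-miR-148a-3p was below sham on the fitted scale at every time point in both strains, between -0.10 and -0.75, with no call. With the study's normalization the sign turned at M4 in C3H (0.14) and at M3 in C57Bl/6 mice (0.019).

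**Figure D3:**
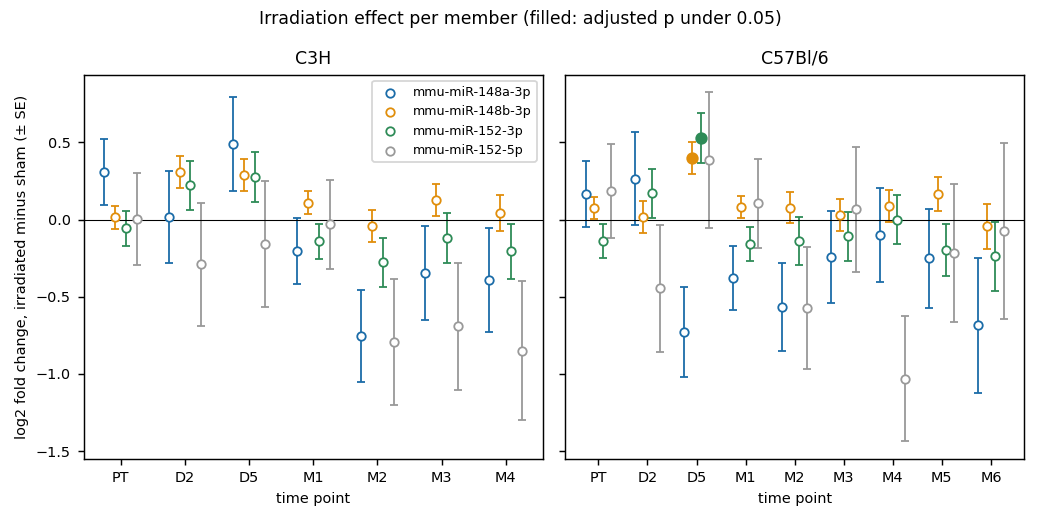
Fitted log2 fold change, irradiated minus sham, of each member by time point and strain, with bars of 1 SE and filled points where the adjusted p was under 0.05. At D5 in C57Bl/6 mice mmu-miR-148b-3p is at 0.40 and mmu-miR-152-3p at 0.53, and no other point was called.

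The irradiation effect did not differ detectably between strains. The test over the 6 shared time points called 0 of 4 members, where 4.35% of all miRNA were called, and the adjusted p ranged from 0.654 for mmu-miR-148a-3p to 0.981 for mmu-miR-152-3p and mmu-miR-152-5p. The called difference at D5 in C57Bl/6 mice is therefore not shown to be particular to that strain.

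Other miRNA were set beside the members at D5 in C57Bl/6 mice, from lists of miRNA that share a role or a source with the family. The median log2 fold change over all miRNA tested was -0.00. Of the other arms of the family's hairpins, 1 of 2 rose, mmu-miR-148a-5p by 1.20 (adjusted p = 0.0365), while mmu-miR-148b-5p was at -0.10. Of 8 miRNA known to target DNA methyltransferases, as the family does, 4 rose and 1 fell, with a median of 0.37. mmu-miR-29c-3p was higher by 0.98 (adjusted p = 6.79e-08), mmu-miR-29a-3p by 0.59 (adjusted p = 2.16e-05) and mmu-miR-185-5p by 0.55 (adjusted p = 0.000183). Of 11 miRNA known for cholesterol and lipid metabolism, 1 rose, again mmu-miR-185-5p, and 2 fell, mmu-miR-223-3p to -1.12 and the liver miRNA mmu-miR-122-5p to -1.74, with a median of 0.06.

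Markers of cells that release miRNA into plasma moved in the same comparison. Of 6 leukocyte markers 4 fell, among them mmu-miR-150-5p at -1.10, mmu-miR-155-5p at -1.41 and mmu-miR-223-3p at -1.12. Their summed level ran from 13787 to 27257 CPM in sham and from 8002 to 27707 CPM in irradiated mice, with medians of 20549 and 11859. Of 5 hepatocyte markers 2 fell and 1 rose, mmu-miR-192-5p by 0.75, and the summed medians were both 5972 CPM, over 2822 to 22532 CPM in sham and 3707 to 13632 CPM in irradiated mice. Of 5 erythroid markers 1 rose, mmu-miR-144-5p by 1.52, and no other was called. Their summed levels were 11522 to 127420 CPM in sham and 24278 to 124005 CPM in irradiated mice, with medians of 51032 and 48032.

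Of 2 endothelial markers, mmu-miR-126a-5p rose by 0.69, and the sum ran from 27626 to 58461 CPM in sham and from 23220 to 91910 CPM in irradiated mice. Of the 4 pancreas markers tested of 5 listed, 1 rose, mmu-miR-375-3p by 1.22, with sums of 211 to 1260 CPM in sham and 561 to 3985 CPM in irradiated mice. Among sham mice 1 of these 4 pancreas markers was at 0 in every sample. No other marker was at 0 throughout either group. The part of these cells in the differences of the members was not tested.

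Sham mice were next compared over time, to see how far the members moved without irradiation. mmu-miR-148a-3p rose in C57Bl/6 plasma at all 8 time points after PT, and 3 of 4 members changed over time in each strain. In C3H mice the adjusted p over all time points was 1.14e-05 for mmu-miR-148a-3p, 0.0274 for mmu-miR-148b-3p, 0.0405 for mmu-miR-152-3p and 0.113 for mmu-miR-152-5p, with 46% of all miRNA called. For C57Bl/6 mice it was 2.43e-13, 0.0109, 2.33e-05 and 0.395 in the same order, with 62.9% called. Changes over time were thus common among plasma miRNA.

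Sham C57Bl/6 mice had mmu-miR-148a-3p levels of 12.88, 13.69 and 14.87 log2 CPM at PT (n = 32). At D2 they lay at 13.60, 14.98 and 15.95 (n = 16), and at M4 at 13.83, 15.41 and 18.59 (n = 16). The lowest mouse at M4 stood above the median at PT. The log2 fold changes against PT were 1.09 at D2, 2.23 at D5, 1.10 at M1, 1.32 at M2, 1.97 at M3, 2.15 at M4, 1.41 at M5 and 1.45 at M6. The value at D5 was the most dependent on a few mice, since the difference of means there was 1.39, or 0.87 after quantile normalization, and the median change from the mouse's own PT level was 0.84. Within codes it was 1.23 in G1 and 1.82 in G3, the code of the 4 sham females with levels up to 18.89. Of the mice, 14 of 16 exceeded their own PT level at D2, 14 of 16 at D5, 21 of 32 at M1, 11 of 16 at M2 and 16 of 16 at M4. Irradiated C57Bl/6 mice moved the same way, with 30 of 32 above their own PT level at D2 and 22 of 25 at M4.

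In C3H sham mice the same miRNA did not rise early, with 5 of 16 mice above their own PT level at D2 and 5 of 16 at D5. It was called higher than at PT later, by 0.90 at M2 (adjusted p = 0.0154), 0.90 at M3 (adjusted p = 0.0117) and 0.81 at M4 (adjusted p = 0.0167). Only G2 mice were sampled then, while the PT samples hold both codes, and against G2 mice at PT the values were 0.63, 0.63 and 0.49, none called. Against their own PT level, 9 of 16 sham C3H mice were higher at M2, 14 of 16 at M3 and 6 of 16 at M4. The median changes were 0.26, 0.66 and -0.41, so that at M4 most mice had fallen. mmu-miR-148b-3p fell in sham mice of both strains at an early time point, to -0.35 at D2 in C3H and -0.41 at D5 in C57Bl/6 mice. It was also lower in C57Bl/6 mice at M4 (-0.26) and M6 (-0.27). Scaled by total reads alone, the difference of means turned to 0.13 at D2 in C3H mice and to 0.0031 at M6 in C57Bl/6 mice, whereas that of mmu-miR-148a-3p stayed above 0 at all 8 C57Bl/6 time points, as it did after quantile normalization.

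The title code divided the C3H mice before any irradiation. mmu-miR-152-3p was higher in G4 than in G2 mice, and mmu-miR-148a-3p was lower, a split noticed in these data and then tested. mmu-miR-152-3p lay at 8.61, 9.90 and 10.81 log2 CPM in G2 mice (n = 48) and at 10.30, 11.16 and 12.30 in G4 mice (n = 48). Nearly separate ranges resulted, since 42 of 48 G2 mice lay below the lowest G4 mouse and 34 of 48 G4 mice above the highest G2 mouse. The log2 fold change, G4 minus G2, was 1.34 (SE 0.09, adjusted p = 5.82e-45). It was -0.85 (SE 0.20, adjusted p = 6.86e-05) for mmu-miR-148a-3p, 0.31 (SE 0.06, adjusted p = 7.56e-06) for mmu-miR-148b-3p and 0.19 (adjusted p = 0.616) for mmu-miR-152-5p. The size, not the sign, depended on the scaling for both miR-148 members, whose differences of means were -0.86 and 0.38. Scaled by total reads alone they were -0.48 and 0.76, and after quantile normalization -0.44 and 0.28.

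Such a split was not particular to the family, since 59% of all miRNA were called between G4 and G2. In C57Bl/6 mice the code called 1 member, mmu-miR-152-3p, 0.32 higher in G3 than in G1 mice (SE 0.09, adjusted p = 0.000963), with 34.2% of all miRNA called. Median depth at PT was 1274625 reads in G2, 1729580 in G4, 1622474 in G1 and 789666 in G3 mice. The median share of mmu-miR-16-5p was 53.3%, 49.0%, 50.9% and 48.7% in the same order. The part of depth and of this share in the split was not tested.

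The C3H split of mmu-miR-152-3p was called at D2 but not at D5 or M1. That of the miR-148 members was called at none of these times, with mmu-miR-148a-3p at -0.05 (adjusted p = 0.952) and mmu-miR-148b-3p at 0.06 (adjusted p = 0.740) at D2. For mmu-miR-152-3p the G4 minus G2 difference was 0.33 at D2 (adjusted p = 0.0340), 0.20 at D5 (adjusted p = 0.360) and -0.13 at M1 (adjusted p = 0.275). G2 sham mice rose against their own code's PT samples by 1.14 at D2, 1.01 at D5, 1.46 at M1, 1.35 at M2, 1.08 at M3 and 1.39 at M4, all called. G4 sham mice were at -0.20, -0.24 and -0.23 at D2, D5 and M1, none called. The G3 minus G1 difference of mmu-miR-152-3p in C57Bl/6 mice was called at each of these times, with 0.75 at D2, 0.69 at D5 and 0.50 at M1.

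The time courses of sham mice were therefore also taken within each code. In G2 mice 3 members were called (61.1% of all miRNA), with an adjusted p of 4.69e-22 for mmu-miR-152-3p, and in G4 mice, followed to M1, only mmu-miR-148b-3p was called (adjusted p = 0.0416, with 12.8% of all miRNA). In C57Bl/6 mice the same 3 members were called within G1 (64.4% of all miRNA) and within G3 (50.1%). There mmu-miR-148a-3p had an adjusted p of 9.88e-08 in G1 and 1.84e-05 in G3. The rise of mmu-miR-148a-3p in C57Bl/6 mice was thus seen within both codes, whereas the change of mmu-miR-152-3p in C3H mice was called in G2 alone. Within a code that rise was not called at every time. It was 0.45 in G3 mice at D2 (adjusted p = 0.489) and 0.74 in G1 mice at M1 (adjusted p = 0.133).

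**Figure D4:**
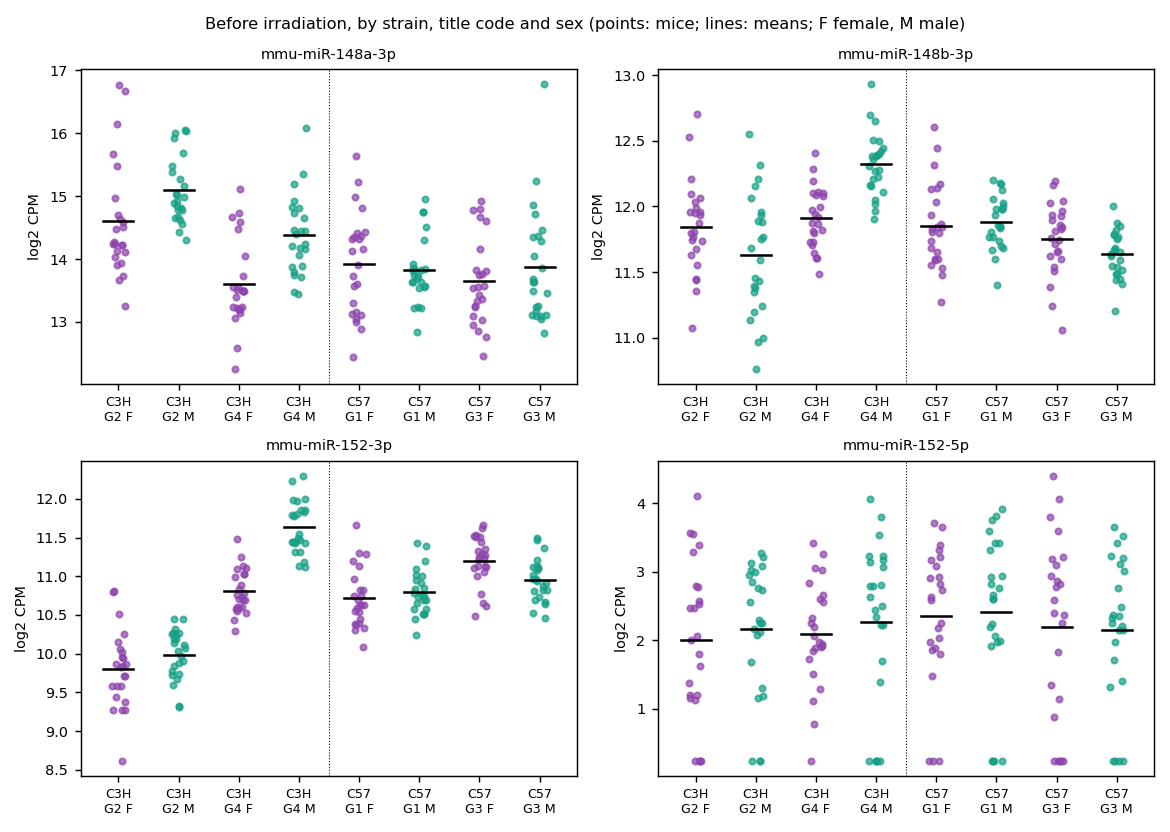
Levels (log2 CPM) before irradiation, one point per mouse, by strain, title code and sex, with lines at the means. In mmu-miR-152-3p the G2 C3H mice run from 8.61 to 10.81 and the G4 C3H mice from 10.30 to 12.30.

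The strains were compared before irradiation. C57Bl/6 plasma held less mmu-miR-148a-3p and mmu-miR-148b-3p than C3H plasma and slightly more mmu-miR-152-3p, but for each of the 3 the difference depended on the title code. mmu-miR-148a-3p lay at 12.24, 14.45 and 16.77 log2 CPM in C3H mice (n = 96) and at 12.45, 13.69 and 16.79 in C57Bl/6 mice (n = 96). The full ranges overlapped almost entirely, and the medians did not coincide. The log2 fold change, C57Bl/6 minus C3H, was -0.63 (SE 0.15, adjusted p = 0.000102). For mmu-miR-148b-3p it was -0.19 (SE 0.05, adjusted p = 0.000604), for mmu-miR-152-3p 0.19 (SE 0.08, adjusted p = 0.0364) and for mmu-miR-152-5p 0.22 (adjusted p = 0.418). Thus 3 of 4 members were called, where 50.7% of all miRNA were, and 85 of 124 in the fit limited to abundant miRNA. A fit that gave each title code equal weight put mmu-miR-148a-3p at -0.55 (adjusted p = 0.000286) and mmu-miR-148b-3p at -0.18 (adjusted p = 0.000295). It put mmu-miR-152-3p at 0.38 (adjusted p = 5.48e-09), so the size for this member depended on how the codes were pooled.

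Between G1 and G2 mice, the strain difference was -0.98 for mmu-miR-148a-3p (adjusted p = 4.96e-06), 0.05 for mmu-miR-148b-3p (adjusted p = 0.572) and 0.88 for mmu-miR-152-3p (adjusted p = 6.78e-22), with 52.6% of all miRNA called. Between G3 and G4 mice it was -0.12 (adjusted p = 0.664), -0.40 (adjusted p = 5.48e-09) and -0.13 (adjusted p = 0.235) in the same order, with 39.5% called. No member kept its call in both pairs of codes. The difference between the pairs was itself called for all 3, at -0.85 (adjusted p = 0.00715), 0.45 (adjusted p = 5.32e-06) and 1.01 (adjusted p = 4.19e-15).

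Beside them, mmu-miR-148a-5p was higher in C57Bl/6 mice by 1.26 (adjusted p = 5.87e-09), the opposite sign to its partner arm. Of the DNA methyltransferase miRNA 6 of 8 were higher and 1 lower, led by mmu-miR-342-3p at 2.39, mmu-miR-29a-3p at 0.94 and mmu-miR-29c-3p at 0.82. Of the cholesterol and lipid miRNA 7 of 11 were lower and none higher, among them mmu-miR-144-3p at -1.47. Of the markers, all 5 erythroid, 2 of 5 hepatocyte, 3 of 6 leukocyte and 3 of 4 pancreas miRNA were lower in C57Bl/6 mice, and both endothelial miRNA were higher. The part of these cells in the strain difference was not tested.

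Sex was compared at PT. By the authors' account the females were older than the males, so sex and age cannot be told apart in these comparisons. In C3H mice mmu-miR-152-3p was lower in females, in which it lay at 8.61, 10.52 and 11.48 log2 CPM (n = 48), against 9.31, 10.79 and 12.30 in males (n = 48). The log2 fold change, female minus male, was -0.68 (SE 0.11, adjusted p = 1.32e-07), the only call among 4 members, with 14.5% of all miRNA called. C57Bl/6 mice had 0 of 4 members called (14.7% of all miRNA), and mmu-miR-152-3p was at 0.08 (adjusted p = 0.665). The difference of the sex difference between strains was 0.76 for this miRNA (adjusted p = 5.38e-05), where 15.1% of all miRNA were called.

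The sex difference of C3H mice was then taken within each title code. In G2 mice 0 of 4 members were called (7.25% of all miRNA), with mmu-miR-152-3p at -0.15 (adjusted p = 0.481). In G4 mice 3 of 4 were called (19.3% of all miRNA), with mmu-miR-152-3p at -0.89 (adjusted p = 2.2e-10), mmu-miR-148a-3p at -0.82 (adjusted p = 0.0246) and mmu-miR-148b-3p at -0.36 (adjusted p = 0.00147). The difference between the codes was -0.74 for mmu-miR-152-3p (adjusted p = 0.00195) and -0.53 for mmu-miR-148b-3p (adjusted p = 0.00217), but it was not called for mmu-miR-148a-3p (-0.50, adjusted p = 0.477). In C57Bl/6 mice 0 members were called within G1 (5.18% of all miRNA) and 0 within G3 (13.9%). The sex difference of the irradiation effect, tested over all time points, called 0 members in C3H mice (0.621% of all miRNA) and 0 in C57Bl/6 mice (6.63%).

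Last, the miRNA whose levels moved most like each member were sought across all samples, after removing group means, as Pearson's r of log2 CPM among the miRNA tested. Samples share mice, a common total and, within a group, the title code, so these values are a description. mmu-miR-148a-3p was most like mmu-miR-183-5p (r = 0.87; 0.92 in C3H and 0.83 in C57Bl/6 mice), then mmu-miR-200c-3p (r = 0.71) and mmu-miR-141-3p (r = 0.59). mmu-miR-148b-3p was most like mmu-miR-93-5p (r = 0.84), mmu-miR-25-3p (r = 0.83) and mmu-miR-16-5p (r = 0.77). mmu-miR-152-3p was most like mmu-miR-29c-3p (r = 0.75), mmu-miR-532-5p (r = 0.64) and mmu-miR-361-5p (r = 0.63). For the sparse mmu-miR-152-5p no value exceeded the 0.39 of mmu-miR-125b-5p, followed by mmu-miR-135a-5p (r = 0.37) and mmu-miR-29c-3p (r = 0.35). With the means of each title code within a group removed as well, an alternative chosen after seeing the data, the same 3 miRNA led for each 3p member, with r from 0.55 to 0.88, and 1 of the 3 for mmu-miR-152-5p.

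The members with the shared seed were less like each other than like these. The r was -0.15 between mmu-miR-148a-3p and mmu-miR-148b-3p, 0.33 between mmu-miR-148a-3p and mmu-miR-152-3p (0.52 with code means removed), and 0.07 between mmu-miR-148b-3p and mmu-miR-152-3p. Arms of 1 hairpin gave 0.61 for mmu-miR-148a-3p with mmu-miR-148a-5p, 0.34 for mmu-miR-152-3p with mmu-miR-152-5p and 0.18 for mmu-miR-148b-3p with mmu-miR-148b-5p. With the share of reads taken by mmu-miR-16-5p, r was 0.71 for mmu-miR-148b-3p, -0.34 for mmu-miR-148a-3p and -0.36 for mmu-miR-152-3p. Whether this share had a part in the likeness was not tested.

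**Figure D5:**
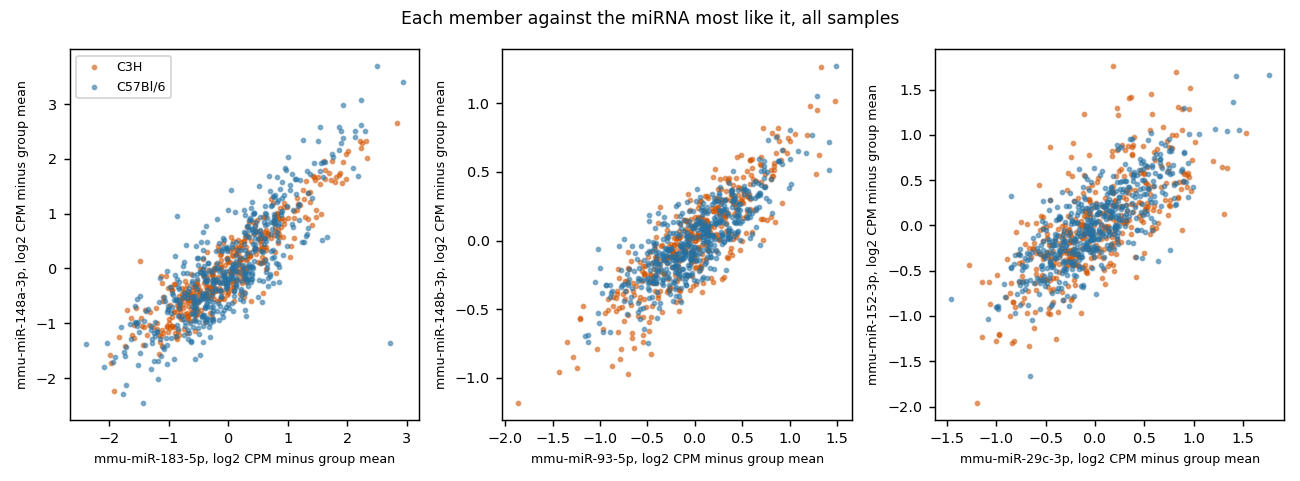
Levels of each 3p member against the miRNA most like it, after removing group means, one point per sample (log2 CPM). The points of mmu-miR-148a-3p and mmu-miR-183-5p follow a line most closely (r = 0.87).

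At D5 in C57Bl/6 mice, the miRNA most like mmu-miR-148a-3p, whose own difference was not called, did not all move alike. The miRNA most like mmu-miR-148b-3p, mmu-miR-93-5p, was higher after irradiation by 0.46 (adjusted p = 0.0237), and mmu-miR-29c-3p, most like mmu-miR-152-3p, was higher by 0.98. For these members only the single most alike miRNA is given, so nothing is said of the others named above. Among those most like mmu-miR-148a-3p, mmu-miR-183-5p was at -0.43 (adjusted p = 0.315), mmu-miR-200c-3p was lower at -0.99 (adjusted p = 0.0238) and mmu-miR-141-3p higher at 1.01 (adjusted p = 0.000668).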

How the data were processed

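Plasma miRNA was sequenced by the authors with a small RNA kit after they excluded hemolysed plasma. The deposited counts are whole-number reads per mature miRNA, made by the authors with a small RNA analysis application on the mouse genome (mm10), with no normalization. Whether molecular identifiers were collapsed is not given in the sources used here. SE and p carry the spread between samples.

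Here, edgeR (4.0.16; R 4.3.3, limma 3.58.1) was fitted to the counts of all 32 groups with TMM scaling and filterByExpr, keeping 483 miRNA with 99.99% of reads, and tested with its quasi-likelihood test on 867 residual degrees of freedom. Sex fits split the groups, and fits by title code used cells of code and sex. The procedure was also run on simulated counts with known changes, drawn independently for each sample. These held no repeated mice, title codes or sexes, so the run does not cover those features of the data. Alternatives used limma-voom, DESeq2 (1.42.0), limma-voom with each mouse as replicate block, other filters and scalings. Log2 CPM used a prior count of 2.

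Repeated samples were assigned to mice by the number in the sample titles. Deviations from group means correlated at a mean r of 0.0857 over 1962 pairs with the same number, against -0.000561 between different numbers. Samples with the same number also share title code and sex, so these values cannot by themselves show that they come from the same mouse. Samples were grouped by strain, treatment and time point from the labels, and no sample was left out. The members were named throughout, with the 3 miRNA most like each, and up to 3 miRNA of each list with the smallest adjusted p where a member was called. The members and lists were chosen with earlier results of these data known.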

Additional observations from a re-analysis of the deposited data

Results flagged for a closer look

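The sex difference of mmu-miR-152-3p before irradiation differed between strains by 0.76 on the log2 scale (C57Bl/6 minus C3H of female minus male, adjusted p = 5.38e-05, edgeR's quasi-likelihood test), a test added after seeing the data. In C3H mice it was -0.89 in G4 and -0.15 in G2 mice. Females were also the older mice, so sex and age cannot be told apart. The irradiation effect on mmu-miR-148a-3p at D5 in C57Bl/6 mice differed between females and males by -2.28 on the log2 scale (adjusted p = 0.00467), although the test over all time points gave an adjusted p of 0.110. The 4 sham G3 females of that comparison ranged from 14.79 to 18.89 log2 CPM.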

How the results depend on the processing

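In C3H mice the number of member tests called after irradiation, 0, became 1 under limma-voom, the mouse as a random replicate block, DESeq2 size factors, a mean of at least 100 CPM, sex and code covariates, fits of the 2 groups alone and DESeq2, and 2 under the study's normalization. Each of these was mmu-miR-148b-3p, at D2 and, under the study's normalization, also at D5. In C57Bl/6 mice the 2 calls became 0 with the fixed replicate block and 1 in fits of the 2 groups alone, and an equal count could hold other members. Under limma-voom and its random replicate block the 2 calls were mmu-miR-148b-3p at D5 and mmu-miR-152-5p at M4, and under DESeq2 and its size factors mmu-miR-148a-3p and mmu-miR-148b-3p at D5. The 3 strain calls became 1 within G3 and G4, as did the 3 sham calls of C3H mice. The 1 sex call in C3H mice became 2 under limma-voom, the random replicate block and DESeq2 size factors, 0 within G2 and 3 within G4. The sex difference of the irradiation effect in C57Bl/6 mice, 0 calls, became 1 with DESeq2 size factors and with no filter on low counts. The replicate block, always fitted with limma-voom, changed no other count of members called.

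At D5 in C57Bl/6 mice, mmu-miR-148b-3p was called in 16 of 18 alternatives (0.23 to 0.51, adjusted p 0.000422 to 0.286) and mmu-miR-152-3p in 8 of 18 (0.10 to 0.68, adjusted p 0.000101 to 0.844). mmu-miR-148a-3p was called there in 5 of 18 (adjusted p down to 0.000677, at -1.60 in G3 mice alone), and its sign turned to 0.15 with the study's normalization, 0.23 within G1, 0.027 without G1 females and 0.55 without G3 females. The strain difference turned to 0.046 for mmu-miR-148b-3p within G1 and G2 and to -0.13 for mmu-miR-152-3p within G3 and G4. Chosen after seeing the data, scaling by total reads alone turned the sham change of mmu-miR-148b-3p to 0.13 at D2 in C3H and to 0.0031 at M6 in C57Bl/6 mice. The cause was not tested. Depth limits mmu-miR-152-5p, with a median of 7 reads.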
